A study of Arabidopsis thaliana with 2 samples.

Results

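The cytokinin response factors CRF1 to CRF8 are 8 of the 27444 protein-coding genes on the nuclear chromosomes of Arabidopsis thaliana. They were selected on the rank of the CCA1 peaks found at them, which an earlier reading of these lists had shown, and are taken here by locus identifier. Every CCA1 peak that overlapped a gene extended by 2000 bp on both sides was then collected. The peaks come from 2 chromatin immunoprecipitation sequencing (ChIP-seq) libraries, 1 read on an Ion PGM and 1 on an Illumina GAII, called IonPGM and Illumina below. Both are from plants of the Col-0 accession that lack functional CCA1 and LHY (cca1 lhy) and carry CCA1pro:CCA1-FLAG, a FLAG-tagged CCA1 driven by its own promoter. Whole seedlings of 14 days, grown at 22 °C on medium with 2% sucrose under 12 h of light and 12 h of dark, were fixed 1 h after lights on and precipitated with an anti-FLAG antibody. Both libraries thus share genotype, age and time of day, and no library of untagged or wild-type plants was analysed here. Cell types of the seedling were not separated, and a peak list offers no marker levels by which to check the tissue.

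CCA1, a MYB protein of the circadian clock, is most abundant around dawn and mainly represses its targets. Cytokinin is sensed by histidine kinase receptors, passed on by phosphotransfer proteins and turned into transcription by type-B response regulators, while type-A response regulators damp the pathway. The CRF proteins are transcription factors of the AP2/ERF class that form a side branch of this pathway, with roles in embryos, leaves, lateral roots, senescence and stress. Their closest relationships run in pairs, CRF1 with CRF2, CRF3 with CRF4, CRF5 with CRF6 and CRF7 with CRF8. The genes are described below in an order that keeps these relatives together.

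The IonPGM list held 2901 peaks and the Illumina list 2954. With an overlap of 1 bp or more counted as shared, 52.2% and 51.6% of all these peaks met a peak in the other library. On the nuclear chromosomes, which held 2848 IonPGM and 2888 Illumina peaks, there were 1499 overlapping pairs. Each peak carries 1 score from the authors' peak caller, whose scale is not given. The score is therefore used as a percentile within its own list, where 100 is the highest score and 0 the lowest. There is 1 library per sequencer and the read depth is unknown, so no value has a replicate error. Because the CRF genes were chosen with these peaks known, the peaks are described and no test was made.

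The CRF genes carried 10 peaks in their windows, 4 of them IonPGM and 6 Illumina peaks. CRF3, CRF4, CRF5 and CRF6 had overlapping peaks of both lists, which is 4 of 8, beside 8.89% of all genes counted the same way. CRF1 had an Illumina peak and no IonPGM peak, beside 7.13% of all genes. CRF2, CRF7 and CRF8 had no peak in the window, beside 76.8% of all genes. Counted by list, 4 CRF genes had an IonPGM peak (16.1% of all genes) and 5 an Illumina peak (17.0% of all genes). CRF3 and CRF4 had pairs above percentile 95 in both lists, beside 0.364% of all genes.

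**Figure D1:**
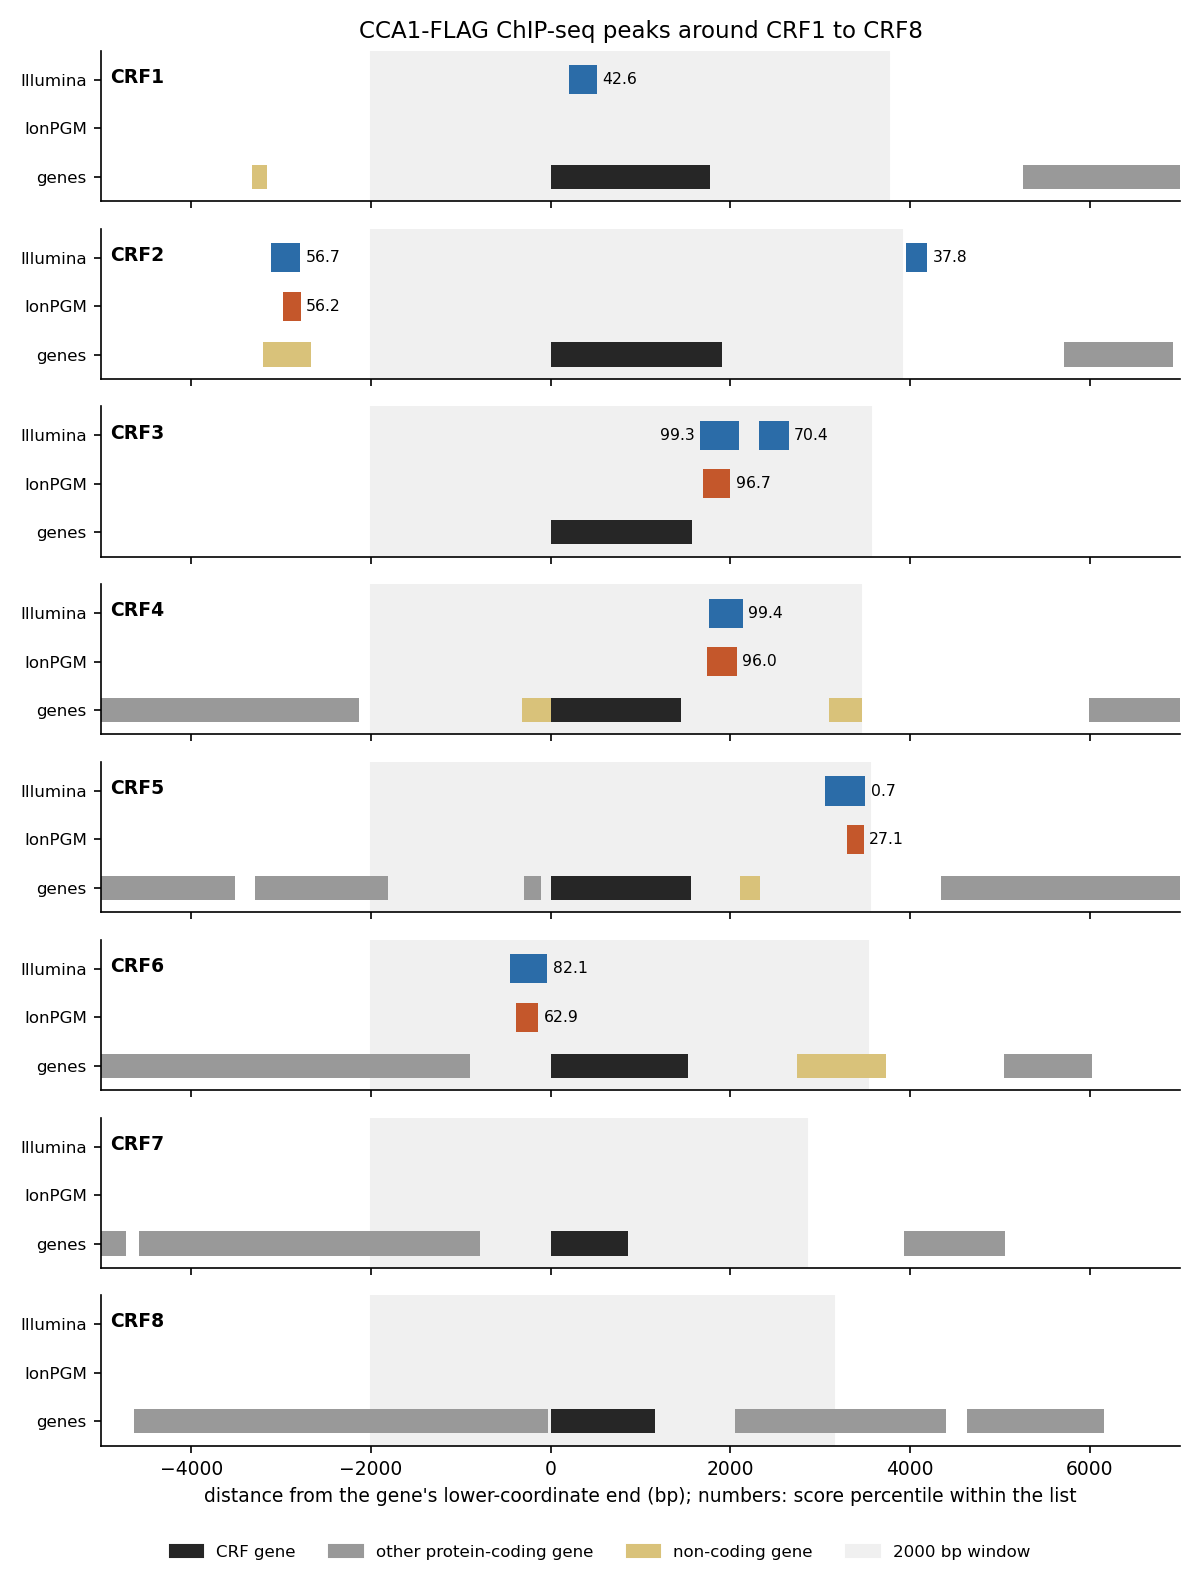
Peaks around each CRF gene, with the distance in bp from the end of the gene that has the lower coordinate on the x axis and rows for genes and for the IonPGM and Illumina peaks. The numbers are score percentiles, and the shaded stretch is the gene with 2000 bp on both sides. Peaks stand close outside 1 end of CRF3, CRF4 and CRF6, far outside CRF5 and inside CRF1. Only peaks within 5000 bp of a CRF gene are drawn, and CRF7 and CRF8 have none within that distance.

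CRF3 (AT5G53290) encodes a factor with a role in lateral root formation, including in the cold. Its IonPGM peak lay on chromosome 5 at 21619413 to 21619712 (TAIR10) and ranked 97 of 2901, at percentile 96.7. The Illumina peak at 21619376 to 21619804 ranked 21 of 2954, at percentile 99.3. The IonPGM peak lay wholly within the Illumina peak, and the common stretch was 300 bp long. Both peaks were outside the gene, beyond its higher-coordinate end, with the near edge 132 bp (IonPGM) and 95 bp (Illumina) away. CRF3 was the only CRF gene with a second peak of the same list in its window. That peak was in the Illumina list alone, at 21620032 to 21620361, 751 bp from the same end and at percentile 70.4. The gene annotation used here gives no strand, so whether these peaks precede or follow the CRF3 transcript was not determined.

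CRF3 stands by itself on the chromosome. The nearest protein-coding genes were 8285 bp away on one side and 12739 bp on the other, together further than for 98.0% of all genes. PDV1, a gene of plastid division, was the next nearest gene to both overlapping CRF3 peaks and lay 9985 bp from the IonPGM peak, followed by AT5G53270 at 12116 bp. For the second Illumina peak the next after PDV1 was UBC10, a ubiquitin-conjugating enzyme gene, 11660 bp away. The CRF3 pair lay in the 2000 bp window of no other protein-coding gene.

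CRF4 (AT4G27950), the closest relative of CRF3, is a cold-induced gene linked to freezing tolerance. Its IonPGM peak was on chromosome 4 at 13911285 to 13911611 and ranked 118 of 2901, at percentile 96.0. Its Illumina peak at 13911305 to 13911680 ranked 18 of 2954, at percentile 99.4. The stretch in common was 307 bp, which is 93.9% of the IonPGM and 81.6% of the Illumina peak. The peaks lay 290 bp and 310 bp beyond the higher-coordinate end of CRF4 and did not reach into the gene. The nearest other protein-coding genes were MTM1, 3880 bp from the IonPGM peak, and UBC9, a ubiquitin-conjugating enzyme gene, 3851 bp from the Illumina peak. As at CRF3, this pair lay in the window of no other protein-coding gene.

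The CRF3 and CRF4 pairs stood close to each other in rank. By mean percentile of both lists, the CRF3 pair was 28 and the CRF4 pair 33 among the 1499 nuclear pairs, with means of 98.0 and 97.7. CRF3 ranked above CRF4 by IonPGM and below it by Illumina, so the 2 libraries did not give them 1 order. For reference, the clock genes TOC1, a repressor of CCA1, and GI, expressed late in the day, had mean percentiles of 98.9 and 99.7, and the pair at CCA1 itself was the highest of both lists. The CCA1pro:CCA1-FLAG transgene also holds CCA1 sequence, and whether it adds to the score at CCA1 was not tested. In all, 55 of the 1499 pairs were above percentile 95 in both lists. The midpoints of the IonPGM and Illumina peaks were 27.5 bp apart at CRF3 and 44.5 bp apart at CRF4, beside a median of 35 bp over all nuclear pairs.

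**Figure D2:**
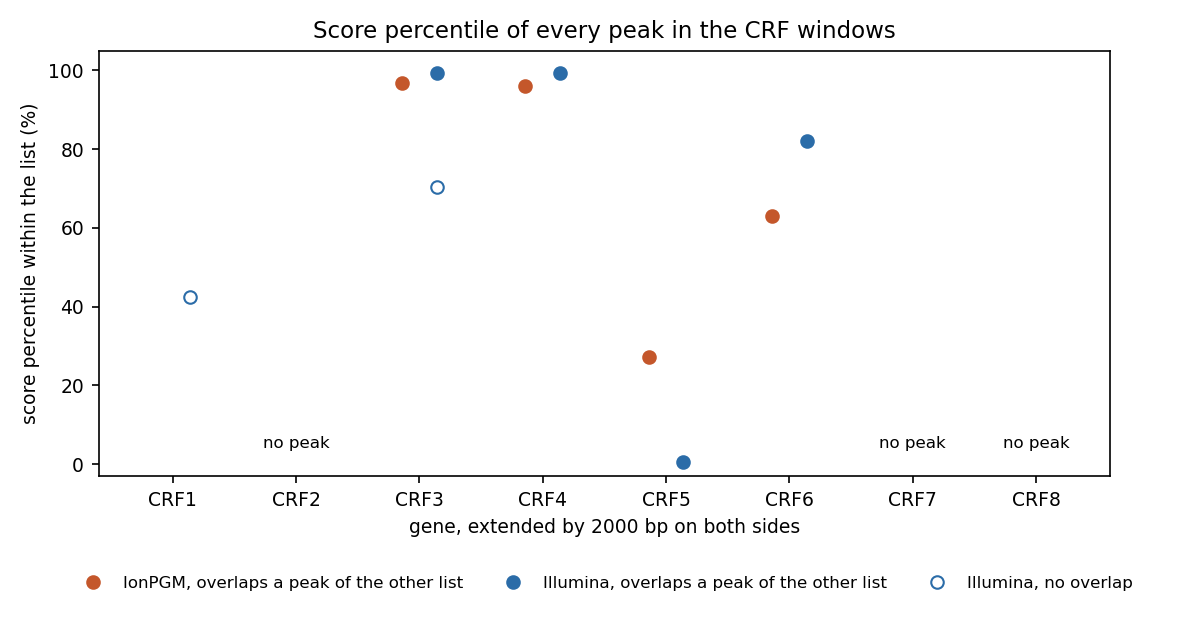
Score percentile within its own list (y axis, 0 to 100) of each of the 10 peaks in the CRF windows, by gene (x axis). Filled points overlap a peak of the other list and open points do not. The filled points of CRF3 and CRF4 lie between 96.0 and 99.4, those of CRF6 at 62.9 and 82.1, and those of CRF5 at 27.1 and 0.677.

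CRF6 (AT3G61630) encodes a factor that delays leaf senescence and acts in the response to oxidative stress. Its IonPGM peak on chromosome 3 at 22804608 to 22804860 was at percentile 62.9, and its Illumina peak at 22804550 to 22804958 was at 82.1. The IonPGM peak again lay wholly within the Illumina peak, and their midpoints were 20 bp apart. Both were outside the gene at its lower-coordinate end, with near edges 138 bp (IonPGM) and 40 bp (Illumina) from it. RRP41, a gene for a subunit of the RNA-degrading exosome, lay on the other side of these peaks, 504 bp from the IonPGM and 446 bp from the Illumina peak, and AT3G61610 came next at 3377 bp and 3319 bp. The CRF6 pair therefore lay in the windows of both genes and was closer to CRF6. Its mean percentile of 72.5 made it number 508 of the 1499 pairs, well behind CRF3 and CRF4 in both lists.

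CRF5 (AT2G46310), the closest relative of CRF6, had the lowest-scoring and most distant pair of the CRF windows. The IonPGM peak, on chromosome 2 at 19014761 to 19014944, was at percentile 27.1. The Illumina peak at 19014509 to 19014961 was at percentile 0.677, ranked 2934 of 2954. They began 1743 bp (IonPGM) and 1491 bp (Illumina) beyond the higher-coordinate end of CRF5. AT2G46320 was the nearest protein-coding gene to both, at 864 bp and 847 bp. This pair is therefore not assigned to CRF5 when each pair goes to its nearest protein-coding gene. The annotated long non-coding RNA gene AT2G09715, between CRF5 and the pair, was not counted in this. The next nearest others were AGP16, an arabinogalactan protein gene, for the IonPGM peak and AT2G46308 for the Illumina peak, at 3320 bp and 3154 bp. The IonPGM peak lay wholly within the Illumina peak, the 184 bp in common made up 40.6% of the latter, and the midpoints were 117.5 bp apart.

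CRF1 (AT4G11140) differed from the others in having its peak inside the gene. The peak was in the Illumina list alone, on chromosome 4 at 6794835 to 6795148, with percentile 42.6. It began 205 bp inside the lower-coordinate end and stopped 1250 bp before the other end. The nearest IonPGM peak was 43318 bp away from CRF1. The nearest other protein-coding genes, TUF, for a subunit of the vacuolar proton pump, and AT4G11160, lay 4739 bp and 7024 bp from the Illumina peak. With a single peak of 1 library, binding at this place and a general signal over the gene body cannot be told apart.

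CRF2 (AT4G23750), also known as TMO3, is a target of the auxin response factor MONOPTEROS in the embryo. It had no peak in the window, but 3 just outside. An Illumina peak at percentile 37.8 began 2040 bp beyond the higher-coordinate end, and was nearer to AT4G23760. On the other side, an IonPGM peak on chromosome 4 at 12373142 to 12373339 (percentile 56.2) overlapped an Illumina peak at 12373009 to 12373336 (percentile 56.7). These lay 2783 bp and 2786 bp from CRF2, which was nonetheless their nearest protein-coding gene, with AT4G23740 next at 3804 bp and 3671 bp. Both overlapped the annotated long non-coding RNA genes AT4G07180 and AT4G07185. The CRF5 and CRF2 peaks are the ones closest to the limit of 2000 bp, the former inside it and the latter outside.

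CRF7 (AT1G22985) and CRF8 (AT1G71130) were without a peak. The nearest IonPGM peak was 5043 bp from CRF7 and 10442 bp from CRF8. The nearest Illumina peak was 17439 bp and 20403 bp away. Over all protein-coding genes, the median distance to the nearest peak was 12505 bp for IonPGM and 11876 bp for Illumina. Both genes were thus nearer to an IonPGM peak and further from an Illumina peak than the median gene. The absence of a peak says that none passed the authors' caller, whose threshold is not given, and not that CCA1 was absent.

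The CRF genes also differed in how much space they have. The distances to the neighbouring protein-coding gene on each side summed to a median of 5538.5 bp over the 8 genes, beside 1860.5 bp over all genes. CRF3 had the most (21024 bp), followed by CRF1 (13485 bp) and CRF2 (10580 bp), and CRF8 the least (921 bp), with GLIP6, a lipase-like gene, next to it. CRF4 came after CRF2, with 6671 bp. Among all genes with more space than the median, 9.42% had overlapping peaks of both lists, and among the rest 8.37%.

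**Figure D3:**
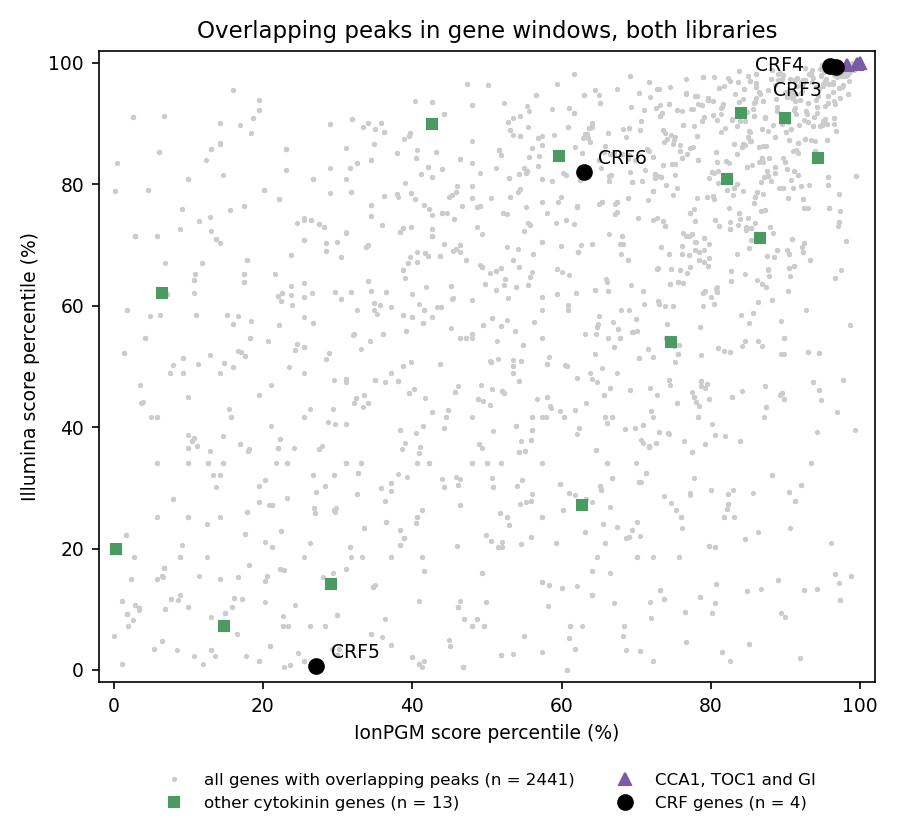
IonPGM (x axis) and Illumina (y axis) score percentile of the highest overlapping pair in the window of each of 2441 genes, with CRF genes in black, other cytokinin genes as green squares and CCA1, TOC1 and GI as triangles. Neighbouring genes can show the same pair. CRF3 and CRF4 lie in the upper right corner beside the clock genes, CRF6 in the upper middle and CRF5 at the lower edge.

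The genes most like CRF3, CRF4 and CRF6 were sought by the sum of the percentile differences of the highest peak in each list, over the 2711 genes with a peak of both lists in the window. This measure rests on 2 libraries, and genes that share a peak tie. Nearest to CRF3, with a sum of 0.309, were UVR3, a DNA photolyase gene, and its neighbours AT3G15630, AT3G15635 and AT3G15640, which tied at percentiles of 96.9 and 99.3. Nearest to CRF4 were EPR1, a MYB gene related to CCA1, and its neighbour AT1G18335, with a sum of 0.103, and then PIL2, a gene related to the phytochrome-interacting factors, with 0.339. RRP41 matched CRF6 exactly because it has the same peaks, followed by NPH3, a phototropism gene, and SAC51, both with a sum of 1.16.

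The rest of the cytokinin pathway was examined for 62 genes in 9 roles. Overlapping peaks of both lists lay in the windows of 13, or 21.0%, beside 8.89% of all genes. None of the 62 had a pair above percentile 95 in both lists, which 0.364% of all genes had. At so small a share, none among 62 genes is not unusual. In 6 of the 13 (CRF9, AHK3, ARR18, ARR20, CKX4 and CKX6) another protein-coding gene was nearer to the pair. The pair lay inside the gene in 4 cases (AHK4, IPT5, LOG7 and CKX5) and across an end in 2 (ARR7 and LOG8).

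**Figure D4:**
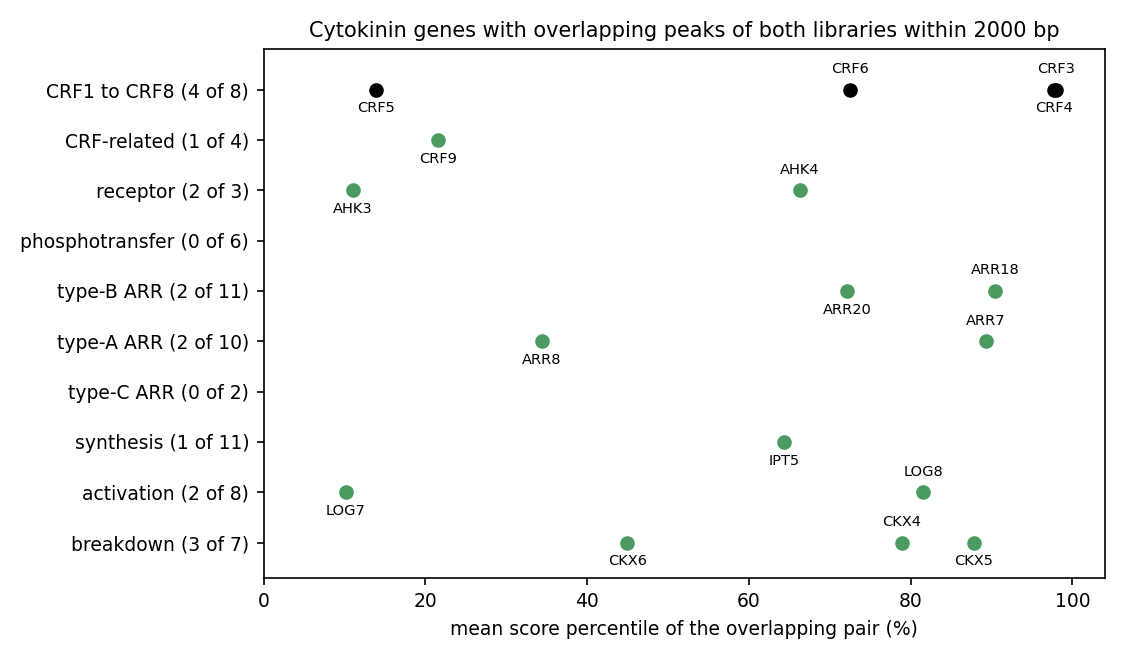
Mean score percentile of the highest overlapping pair (x axis) for each cytokinin gene that has one, by role (y axis), with the number of such genes of all genes of the role in brackets. CRF3 and CRF4 stand highest at 98.0 and 97.7, above ARR18 at 90.4 and ARR7 at 89.3. Of all genes, 8.89% had such a pair.

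The counts by role, here and in the next paragraph, rest on few genes and stand beside 8.89% of all genes with a pair. Of the 4 CRF-related genes CRF9 to CRF12, CRF9 alone had a pair, at percentiles 29.1 (IonPGM) and 14.1 (Illumina), and that pair overlapped BBX17. Among 3 receptor genes, AHK4 had a pair inside the gene at 42.7 and 89.9, and AHK3 one at 14.8 and 7.20. None of 6 phosphotransfer genes had a peak of either list, as was the case for 76.8% of all genes. Of 11 type-B response regulator genes, ARR18 had a pair at 89.9 and 90.9, and ARR20 one at 59.7 and 84.7. The ARR18 pair lay 51 bp outside ARR18 and overlapped TIL instead.

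Of 10 type-A response regulator genes, ARR7, which cytokinin induces, had a pair across 1 end on chromosome 1 at 6579268 to 6579536, at 94.3 and 84.3. ARR8 had one at 6.52 and 62.2. The 2 type-C genes had no peak, as was the case for 76.8% of all genes. Among 11 synthesis genes, IPT5, an isopentenyltransferase gene, had a pair at 74.7 and 54.0. That is 9.09% of the role, close to the 8.89% of all genes. Of 8 genes for LOG enzymes, which release active cytokinin, LOG8 had a pair at 82.2 and 80.9, and LOG7 one at 0.276 and 20.0. Cytokinin oxidase genes, for breakdown, had pairs in 3 of 7 cases: CKX5 at 84.0 and 91.7, CKX4 at 86.6 and 71.2, and CKX6 at 62.7 and 27.2.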

How the data were processed

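Per the submitters' processing notes, Bowtie 0.12.7, SAMtools 0.1.18, MACS2 and the TAIR10 build were used. Nothing used here states the peak threshold, a control library or filters. The deposited lists give each peak's position and 1 score from the authors' peak caller. Starts were taken as 0-based, as in BED files, and are printed 1-based.

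Scores were ranked within each list, ties taking their mean rank. Genes came from NCBI RefSeq on TAIR10.1, whose nuclear chromosome sequences equal those of TAIR10. No gene coordinate is printed. A gene counted as having a pair when a peak of each list, overlapping by at least 1 bp, both touched the gene extended by 2000 bp. A pair can count for several genes. All 73 listed genes were found by locus identifier.

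The CRF genes, gene lists and rules were chosen with earlier results of these data known. Named are all CRF genes, the 2 nearest other genes of each window peak, up to 4 pathway genes with a pair per role, the 3 genes most like each of the 3 highest CRF genes (with ties), and CCA1, TOC1 and GI. Others are marked by their context (nearest genes of peaks outside the windows, non-coding genes, GLIP6). Searches of motifs and proteins had been planned and were not run, since no sequence was used here. The counting was tested on simulated peaks. Alternatives varied window, overlap, score threshold and assignment. The software was Matplotlib 3.10.9, pandas 2.3.3, SciPy 1.17.1 and NumPy 2.4.6 under Python 3.11.15.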

Additional observations from a re-analysis of the deposited data

How the results depend on the processing

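CRF3 and CRF4 had overlapping peaks of both lists under each of the 10 alternatives that require both. The CRF genes were selected on the rank of these peaks, so the score thresholds reuse that choice and are no independent check. The count of 4 CRF genes became 2 when only peaks above percentile 75 were used, which left CRF3 and CRF4 (2.03% of all genes). It was 3, without CRF5, with windows of 500 bp (5.17% of all genes) or 1000 bp (6.56%). The same 3 remained with overlap of at least 50% of the longer peak (7.89%), above percentile 50 (4.32%) and with the nearest protein-coding gene only (5.13%). They also remained, in a setting chosen after seeing the data, within 1000 bp outside or 200 bp inside an end of the gene (5.84%). The count was 5, with CRF2 added, for windows of 3000 bp (11.4% of all genes). It stayed at 4 with overlap of at least 50% of the shorter peak (8.69%) and, chosen after seeing the data, when the centre of the common stretch had to lie within 2000 bp (8.62%). For the other cytokinin genes the count of 13 became 7 above percentile 50 (4.32% of all genes), 9 with windows of 1000 bp (6.56%) and 12 with overlap of at least 50% of the shorter peak (8.69%). Ranking among nuclear peaks alone moved no percentile of the 10 CRF peaks by more than 0.951. No paired analysis was possible because each sequencer has 1 library and the labels give no replicate numbers, and for the same reason no library could be left out within a group. Depth is unknown, so weak peaks such as those at CRF5 cannot be given a detection limit.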

Other observations

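Another 7 of the 62 cytokinin genes had peaks in the window that did not overlap between the lists. This is a smaller share than the 14.3% of all genes, and the 7 are named after their values were seen. Among the type-A response regulators, which damp cytokinin signalling, ARR4 had an Illumina peak at percentile 91.8, ARR6 an Illumina peak at 84.4 and ARR9 an IonPGM peak at 90.3. Each of these 3 peaks ranked in the upper part of its own list and had no counterpart of the other list in the window. These 3 of the 10 type-A genes stand beside 14.3% of all genes. The count for this role rests on few genes, was picked out after it was seen and was not tested. ARR1, a type-B regulator, had an IonPGM peak at 51.6 and an Illumina peak at 69.1 in different places, and IPT6 had separate peaks at 24.1 and 43.9. ARR19 had an Illumina peak at 48.0 and CKX7 an IonPGM peak at 27.6.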
